A study of Mus musculus with 6 samples.

Results

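The Hippo effectors and TEAD factors are 10 genes that were taken by symbol from a table of 14915 gene symbols: the co-activators YAP1 and WWTR1, the transcription factors TEAD1, TEAD2, TEAD3 and TEAD4, the TEAD-binding repressor VGLL4, the kinases LATS1 and LATS2 and the scaffold AMOTL2. All 10 were found and all 10 passed the filter on low values, a mean of at least 1 TPM over the 6 libraries. TPM scales a transcript's abundance to its length and to the library's total. Per the labels, the libraries came from B16F10, a mouse melanoma cell line, and all cells had been treated with TNFα, an inflammatory cytokine, while amino acids were limited. In 3 libraries, named S127A here, the cells carried ZBTB5-S127A, in which alanine replaces a serine of the transcription factor ZBTB5 and its phosphorylation is blocked. The other 3 libraries came from wild-type (WT) cells. The design text asks how this phosphorylation bears on the activation of mTORC1, a growth kinase complex, by inflammation. The labels do not say whether the S127A line is 1 clone or whether the replicates were separate cultures, so p-values measure the spread between these libraries, which may be technical.

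The Hippo pathway is a kinase cascade that holds back growth. STK3 and STK4 (also called MST2 and MST1) activate LATS1 and LATS2, which phosphorylate YAP1 and WWTR1 (TAZ), and the phosphorylated proteins are kept in the cytoplasm by 14-3-3 proteins or degraded. Unphosphorylated YAP1 and WWTR1 enter the nucleus and bind TEAD factors, which carry them to DNA. In melanoma, TEAD factors are known for their part in the invasive, dedifferentiated state. RNA levels, which are all that was measured here, do not show phosphorylation or the place of a protein in the cell.

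The libraries of the 2 groups stood far apart over the whole table. Of 10348 genes tested, 9315 differed, which is 90.0%, with 40.2% higher and 49.8% lower in S127A (limma, Benjamini-Hochberg adjusted p under 0.05). The 7 melanocyte markers, PMEL, MLANA, TYR, TYRP1, DCT, SOX10 and MITF, summed to between 26.8 and 32.4 TPM in S127A libraries and between 14911 and 15194 TPM in WT libraries, and all 7 were lower, so the libraries labelled S127A held only traces of the melanocyte transcripts that define the stated line. Across genes, Pearson's r of log2(TPM + 1) was 0.998 between libraries of 1 group and 0.676 to 0.679 between the groups. Whether the S127A libraries are of the labelled line was not tested. The 10 fibroblast markers summed to between 301 and 313 TPM in S127A and between 16.2 and 17.2 TPM in WT. Most of the S127A sum was COL1A2, which averaged 275 TPM, against 1.41 TPM in WT. Of the 6 tested, 5 were higher, and POSTN was lower, at 0.0667 TPM on average in S127A and 7.79 TPM in WT. Endothelial or epithelial markers, 8 in the table, summed to between 63.7 and 64.1 TPM in S127A, nearly all of it KRT18, and between 0.23 and 0.40 TPM in WT. Immune markers, 6 in the table, summed to between 48.6 and 51.7 TPM in S127A, mostly CD14, and between 7.23 and 8.25 TPM in WT. PTPRC, the pan-leukocyte antigen, was at 0.057 TPM on average in S127A and 0.03 TPM in WT. Of these markers LUM and THY1 were listed at 0 in each S127A library, and DCN, CDH5, KDR, TEK, KRT8, KRT19 and CD14 were among those at 0 in each WT library. ZBTB5 itself averaged 8.90 ± 0.569 TPM in S127A and 15.5 ± 0.54 TPM in WT (SD, n = 3 each), which does not check the substitution. The part that these library-wide differences play in the values below was not tested, and in bulk RNA fewer cells of a type and less RNA per cell cannot be told apart.

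All 10 Hippo effector genes differed between the groups. WWTR1, TEAD1, TEAD3, TEAD4, LATS2 and AMOTL2 rose and YAP1, TEAD2, LATS1 and VGLL4 fell in S127A, 6 higher and 4 lower. The 3 libraries of one group lay clear of the 3 of the other for each of the 10 genes. With 90.0% of all tested genes called and 90.2% with no overlap between the groups, that number of calls is near the background. The median log2 difference of the 10 genes was 0.68, against −0.12 for all tested genes, and the median absolute difference was 0.89, against 0.69. A change of at least 2-fold is an absolute log2 difference of 1 or more. Together with an adjusted p under 0.05 it was reached by 4 of the 10 genes (WWTR1, TEAD3, AMOTL2 and VGLL4) and by 35.4% of all tested genes. Taken relative to the median of all tested genes, the 10 differences ran from −1.31 to 1.40 with the same signs. Log2 differences are of TPM + 1, S127A minus WT, a scale that understates changes of low genes, with standard errors (SE) and adjusted p from the fit over all tested genes. The plot of levels by library shows the 2 co-activators moving opposite ways.

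**Figure D1:**
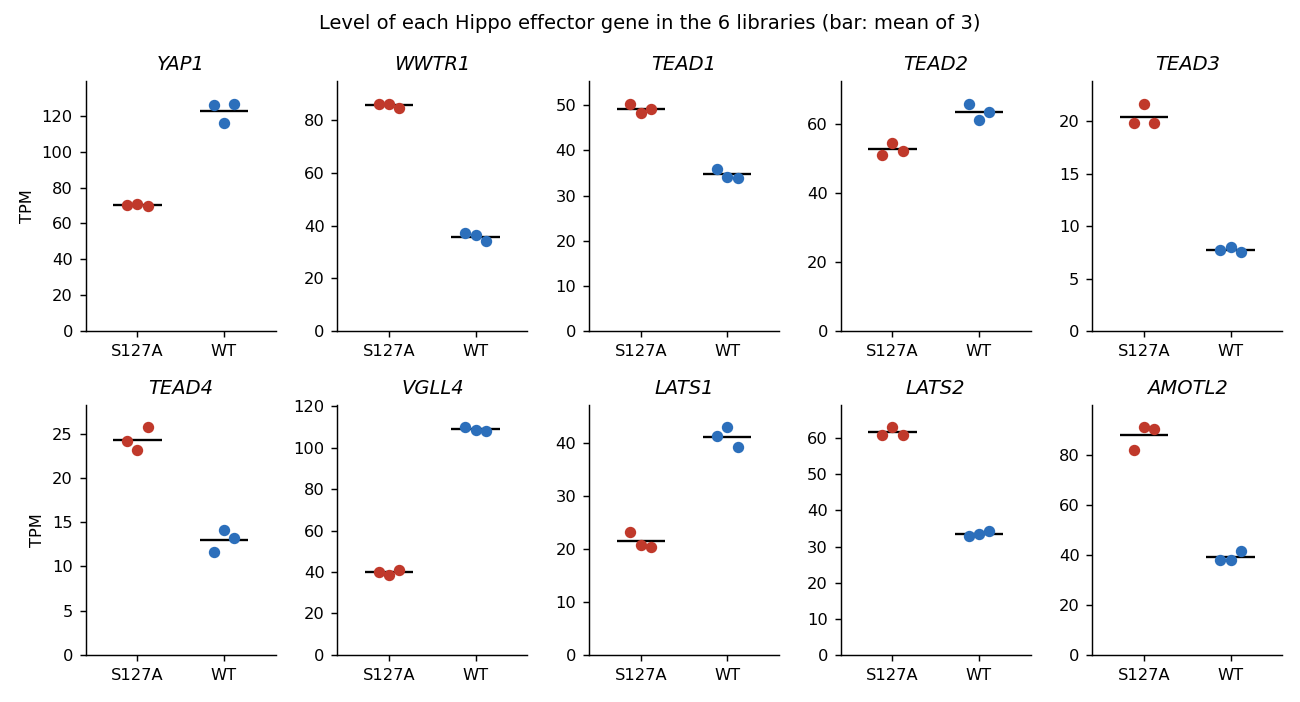
TPM of each of the 10 genes in the 3 S127A (red) and 3 WT (blue) libraries, with the mean of each group as a bar and each axis starting at 0. The groups do not overlap for any gene, and S127A is lower for YAP1, TEAD2, VGLL4 and LATS1.

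YAP1, the co-activator for which the branch is named, was at 70.0, 70.9 and 69.9 TPM in the S127A libraries, against 126.1, 115.8 and 126.6 TPM in the WT libraries. Every S127A library lay below every WT library, and the spread was smaller in S127A. YAP1 had a log2 difference of −0.80 (limma, SE 0.0396, adjusted p = 5.61e-09). Its paralog WWTR1, which shares the TEAD partners and lies under the same kinases, went the other way. WWTR1 was at 86.1, 86.2 and 84.7 TPM in S127A, against 37.1, 36.3 and 34.1 TPM in WT. All S127A libraries lay above the WT libraries, and WWTR1 rose by 1.23 in log2 (SE 0.0402, adjusted p = 1.49e-10).

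The 2 co-activators together were nearly level. YAP1 and WWTR1 summed to 155.9 ± 1.23 TPM in S127A and 158.7 ± 5.84 TPM in WT (SD, n = 3 each). The groups overlapped, and the sign of the small difference of −2.76 TPM turned to positive under each of 3 other scalings, with 3.20 to 8.17 TPM. What differed was the mix. YAP1 made up 44.9% to 45.2% of the sum in S127A libraries and 76.2% to 78.8% in WT libraries, a share that does not move when all values of a library are multiplied by 1 factor. The ratio of WWTR1 to YAP1 was 1.23, 1.22 and 1.21 in the S127A libraries, against 0.295, 0.313 and 0.269 in the WT libraries, so the more abundant transcript of the pair was WWTR1 in each S127A library and YAP1 in each WT library.

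Among the DNA-binding partners, 3 of 4 TEAD genes rose. TEAD1, the first member of the family to be described, was at 50.3, 48.3 and 49.1 TPM in S127A, against 35.9, 34.1 and 33.9 TPM in WT. TEAD1 rose by 0.50 in log2 (SE 0.0404, adjusted p = 4.23e-07), with no overlap. TEAD3 was at 19.8, 21.7 and 19.9 TPM in S127A, against 7.76, 8.01 and 7.56 TPM in WT. This was the largest change of the family, a rise of 1.29 (SE 0.0576, adjusted p = 2.24e-09). TEAD4 was at 24.1, 23.2 and 25.7 TPM in S127A, against 11.7, 14.1 and 13.2 TPM in WT, and it rose by 0.86 (SE 0.0698, adjusted p = 3.97e-07). TEAD2, known from the early mouse embryo and neural precursors, was at 51.1, 54.6 and 52.3 TPM in S127A, against 65.9, 61.1 and 63.6 TPM in WT. It fell by 0.27 (SE 0.0416, adjusted p = 0.000104), the smallest change of the 10 genes. Of all tested genes 21.2% had a smaller absolute difference than TEAD2. Relative to the median of all tested genes the TEAD2 difference was −0.15, and it kept its sign and its call under the 3 other scalings (−0.21 to −0.17).

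The TEAD genes summed to 146.7 ± 1.23 TPM in S127A and 118.9 ± 2.04 TPM in WT (SD, n = 3 each), with no overlap between the groups. TEAD2 made up 35.2% to 36.9% of this sum in S127A libraries and 52.1% to 54.3% in WT libraries. TEAD1 accounted for 32.7% to 34.6% in S127A and 28.7% to 29.6% in WT. The share of TEAD3 was 13.5% to 14.7% in S127A and 6.39% to 6.83% in WT, and that of TEAD4 was 15.7% to 17.5% in S127A and 9.63% to 11.99% in WT. The S127A libraries thus had TEAD1 and TEAD2 at near equal shares, whereas TEAD2 alone held the larger part of the sum in the WT libraries.

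VGLL4, which binds TEAD factors through its Tondu domains and competes with YAP1 for them, fell the furthest. VGLL4 was at 40.1, 38.5 and 40.9 TPM in S127A, against 109.8, 108.8 and 107.9 TPM in WT. Both groups were tight and far apart, and VGLL4 fell by 1.43 in log2 (SE 0.0357, adjusted p = 1.65e-11). Of all tested genes 75.6% had a smaller absolute difference. The ratio of YAP1 to VGLL4 was 1.76 ± 0.0685 in S127A and 1.13 ± 0.0573 in WT (SD, n = 3 each), although both transcripts fell.

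**Figure D2:**
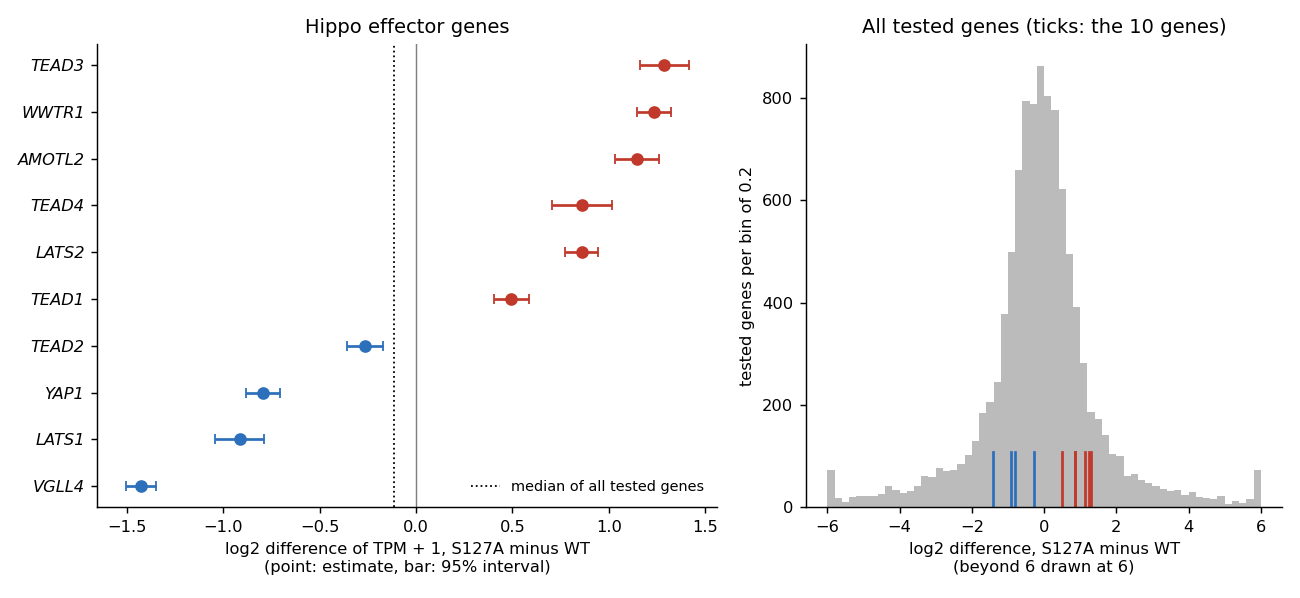
Left, log2 difference of TPM + 1 (S127A minus WT) of each of the 10 genes with its 95% interval, red where higher and blue where lower in S127A, and the median of all tested genes as a dotted line. Right, the same differences for 10348 tested genes in bins, with the 10 genes as ticks, which lie between −1.43 and 1.29 within the bulk of the distribution.

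The LATS kinases, which phosphorylate YAP1 and WWTR1, also moved in opposite directions. LATS1 was at 23.1, 20.8 and 20.3 TPM in S127A, against 41.3, 42.9 and 39.2 TPM in WT. LATS1 fell by 0.91 in log2 (SE 0.0571, adjusted p = 4.08e-08). LATS2 was at 61.0, 63.0 and 61.0 TPM in S127A, against 32.8, 33.4 and 34.4 TPM in WT. LATS2 rose by 0.86 (SE 0.0379, adjusted p = 2.0e-09), with no overlap. The LATS genes summed to 83.0 ± 1.55 TPM in S127A and 74.7 ± 1.42 TPM in WT (SD, n = 3 each). LATS2 made up 72.6% to 75.2% of that sum in S127A libraries and 43.8% to 46.8% in WT libraries. As with the co-activators, the leading paralog differed between the groups, LATS2 in each S127A library and LATS1 in each WT library.

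AMOTL2, an angiomotin-family scaffold of cell junctions that binds YAP1 and promotes its phosphorylation by LATS, was at 82.0, 90.8 and 90.2 TPM in S127A, against 38.1, 37.8 and 41.3 TPM in WT. AMOTL2 rose by 1.15 in log2 (SE 0.0506, adjusted p = 2.03e-09), and all S127A libraries lay above all WT libraries. LATS2 and AMOTL2 are also known in human cells as transcripts that YAP1 and TEAD factors raise, in a feedback that restrains YAP1. Whether that feedback had a part in these libraries was not tested. LATS2 and AMOTL2 are the 2 negative regulators of YAP1 among the 10 genes that rose. LATS1 and VGLL4, the other negative regulators, fell.

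**Figure D3:**
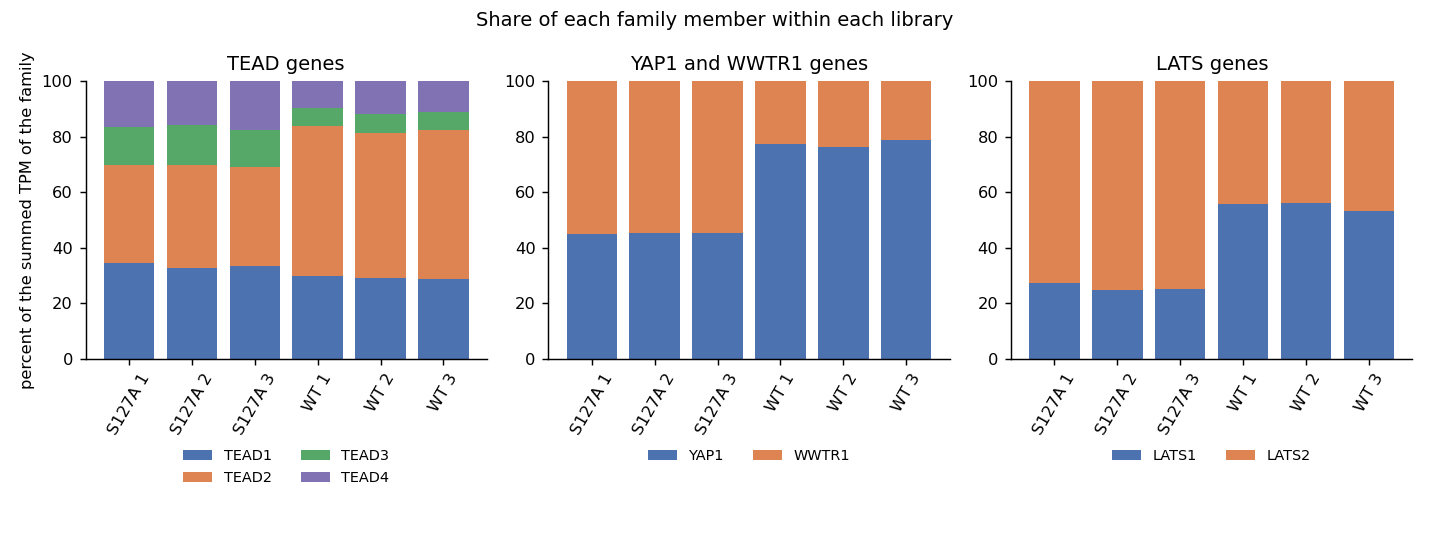
Stacked bars of the percent of each family's summed TPM that each gene holds in each of the 6 libraries, S127A on the left. YAP1 holds 44.9% to 45.2% in S127A and 76.2% to 78.8% in WT, and LATS2 holds 72.6% to 75.2% in S127A and 43.8% to 46.8% in WT.

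The order of levels among the 10 genes differed between the groups. In S127A, AMOTL2 (mean 87.6 TPM) and WWTR1 (85.6 TPM) led with overlapping ranges, followed by YAP1, LATS2, TEAD2, TEAD1, VGLL4 and TEAD4, each clear of its neighbour, and then LATS1 and TEAD3, whose ranges overlapped. In WT, YAP1 (123 TPM) led, followed by VGLL4 (109 TPM), TEAD2, LATS1, AMOTL2, WWTR1, TEAD1, LATS2, TEAD4 and TEAD3. In WT the ranges of LATS1 and AMOTL2, of WWTR1 and TEAD1, and of TEAD1 and LATS2 overlapped, and the other neighbours were clear of each other. The genes with the profile most like that of YAP1 over the 6 libraries, by the root mean square difference of log2(TPM + 1), were MRPS23 (0.0555), BAK1 (0.0648) and GFM1 (0.0686). For WWTR1 they were CSNK1E (0.0695), SMURF1 (0.071) and GCLM (0.0814). The antisense strand of 6 of the 10 genes carries another annotated gene, and no source used here gives the strand setting of the counting, so reads of the pairs may not be told apart. On the same strand, 2 of the 10 genes overlap another annotated gene, LATS2 the protein-coding Gm49361 and TEAD1 the miRNA gene Gm44462, and no strand setting separates those reads, so the level of LATS2 is uncertain to that extent. The partner of TEAD2 is CD37, at 1.74 ± 0.336 TPM in S127A and 0.867 ± 0.323 TPM in WT (SD, n = 3 each), and TEAD3, LATS1, AMOTL2 and VGLL4 had no overlapping gene.

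Start-site sequences were read for the genes that moved, since TEAD factors bind the MCAT element, GGAATG, or CATTCC on the other strand. RefSeq windows (GRCm38.p6, the assembly of mm10) from 250 bases before to 50 bases after a start site were found for 8 of the 10 genes. The motif was present on either strand in a window of 6 of these 8, YAP1, WWTR1, TEAD3, LATS2, AMOTL2 and VGLL4, and not in those of TEAD2 and LATS1. Of all 32851 windows 14.7% held it, as did a window of 14% of 7929 tested genes, and genes with several windows, such as TEAD3 with 3, have more bases in which to match. No other motif was searched. The motif stood in genes that rose and in genes that fell, and a match of letters is a description, not a binding site. Stretches of 100 bases around the motif are shown for these 6 genes and for ANKRD1 and AXL, the 2 target genes with the largest rises, all 5′ to 3′ on the gene's strand with the motif in capitals. They lie at chr9:8004685-8004784 (YAP1, minus strand), chr3:57575994-57576093 (WWTR1, minus), chr14:57746074-57746173 (LATS2, minus), chr9:102717692-102717791 (AMOTL2, plus), chr6:114969233-114969332 (VGLL4, minus), chr17:28350671-28350770 (TEAD3, minus), chr19:36119995-36120094 (ANKRD1, minus) and chr7:25788884-25788983 (AXL, minus).
YAP1: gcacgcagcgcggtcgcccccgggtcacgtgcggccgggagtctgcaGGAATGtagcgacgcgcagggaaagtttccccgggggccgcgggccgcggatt
WWTR1: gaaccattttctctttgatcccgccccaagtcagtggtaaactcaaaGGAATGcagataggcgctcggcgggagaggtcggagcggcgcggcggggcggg
LATS2: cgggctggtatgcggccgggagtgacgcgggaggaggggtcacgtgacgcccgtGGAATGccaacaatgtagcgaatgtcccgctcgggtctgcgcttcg
AMOTL2: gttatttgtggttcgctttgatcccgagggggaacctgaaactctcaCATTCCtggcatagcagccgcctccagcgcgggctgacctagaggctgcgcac
VGLL4: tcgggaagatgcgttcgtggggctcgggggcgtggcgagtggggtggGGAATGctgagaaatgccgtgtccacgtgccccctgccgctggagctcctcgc
TEAD3: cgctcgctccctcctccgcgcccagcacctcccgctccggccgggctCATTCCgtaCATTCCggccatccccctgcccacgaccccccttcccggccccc
ANKRD1: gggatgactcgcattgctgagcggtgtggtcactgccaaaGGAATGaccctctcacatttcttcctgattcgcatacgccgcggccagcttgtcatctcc
AXL: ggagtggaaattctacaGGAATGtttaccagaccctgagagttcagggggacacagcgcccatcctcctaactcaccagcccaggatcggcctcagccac

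In YAP1 the first base of the motif lay at −141 and in WWTR1, which has 2 windows that hold the same site, at −136 and −170 from their start sites. It lay at −82 in VGLL4 and at −65 in AMOTL2. In LATS2, 1 of 2 windows held the motif, 5 bases into the transcript that starts in that window. In TEAD3, 2 of 3 windows held it, at −182 in the first and at −123, −114 and 3 in the second, of which −123 and −114 are shown. The motif thus stood upstream of the start sites of both co-activators, which moved in opposite directions. In ANKRD1 it lay at −210 and −123, of which the first is shown, and in AXL at −233.

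A further list held kinases that activate LATS, their scaffolds and other proteins that restrain YAP1. Of its 24 tested genes 8 were higher in S127A, 15 were lower and 1 did not pass. Of all tested genes 40.2% were higher and 49.8% lower, and whether the list departs from these shares was not tested. The median log2 difference was −0.54. The largest falls were of TNIK, a kinase of the MAP4K group that can phosphorylate LATS, which was at 0.0167 ± 0.0289 TPM in S127A and 9.17 ± 0.285 TPM in WT, and of WWC1, the KIBRA scaffold, which was at 3.89 ± 0.296 TPM in S127A and 19.7 ± 0.342 TPM in WT (SD, n = 3 each). STK38, an NDR kinase related to LATS, fell to 35.4 ± 0.415 TPM in S127A, against 82.7 ± 3.16 TPM in WT, and RASSF1, which binds the MST kinases, rose to 132 ± 2.37 TPM in S127A, against 68.1 ± 0.564 TPM in WT. TAOK3 was the 1 gene that did not pass (log2 difference −0.09, adjusted p = 0.138), named after its values were seen. In these libraries the 7 melanocyte markers summed to at most 32.4 TPM in S127A and at least 14911 TPM in WT.

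The other genes of this list described here were named after their values were seen. The MST kinases moved in opposite directions. STK3 rose to 54.7 ± 4.52 TPM in S127A, against 34.4 ± 2.7 TPM in WT, while STK4 fell to 30.6 ± 1.25 TPM, against 67.8 ± 0.641 TPM (SD, n = 3 each). NF2, the merlin scaffold that brings LATS to the membrane, fell to 49.6 ± 3.31 TPM in S127A, against 108.5 ± 3.32 TPM in WT, and FRMD6, a related FERM-domain protein, rose to 76.4 ± 0.802 TPM, against 33.2 ± 1.37 TPM. WWC2 rose by 0.88 on the log2 scale where its paralog WWC1 fell by 2.09. SAV1, the scaffold of the MST kinases, fell by 0.68, and the LATS cofactors MOB1A and MOB1B rose by 0.70 and 0.51. MOB1A and MOB1B are close in sequence, and reads that fit both leave their levels uncertain. Of the angiomotins, AMOT rose by 0.73 like AMOTL2, while AMOTL1 stood at 84.5 ± 1.16 TPM in S127A and 94.0 ± 2.16 TPM in WT. The call of AMOTL1 (log2 difference −0.15, adjusted p = 0.00114) was lost with trimmed mean scaling (−0.06, adjusted p = 0.125) and quantile normalization (−0.05, adjusted p = 0.148), within a range of 0.00105 to 0.148 over the 17 alternatives run.

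Genes whose products oppose LATS or the MST kinases, which include the STRIPAK phosphatase complex, the AJUBA family and ubiquitin ligases of LATS, were lower for 13 of 18 tested genes and higher for 4, beside 49.8% lower and 40.2% higher of all tested genes. The median log2 difference was −0.33, against −0.12 for all tested genes. WTIP, a LIM protein of the AJUBA family that binds LATS, was at 0.06, 0.06 and 0.12 TPM in S127A, against 41.8, 44.9 and 46.3 TPM in WT. Its log2 difference was −5.39 (SE 0.0663, adjusted p = 7.91e-14), and its relative AJUBA, named after its values were seen, rose by 0.31 (adjusted p = 6.72e-05). PPP2CA, a catalytic subunit of the phosphatase PP2A, fell to 208 ± 7.41 TPM in S127A, against 422 ± 10.5 TPM in WT (SD, n = 3 each). The STRIPAK subunit SIKE1 rose to 62.2 ± 0.0513 TPM in S127A, against 37.2 ± 0.806 TPM in WT (SD, n = 3 each). STRN, STRN3, STRN4, SLMAP, MOB4 and PPP2R1A, of the same complex and named after their values were seen, were lower like PPP2CA. MARK2, named after its values were seen, did not pass (log2 difference 0.07, adjusted p = 0.213) and was called higher under the 3 other scalings. STRIP2 was listed below the filter. Fibroblast markers summed to at least 301 TPM in S127A, most of it COL1A2, and at most 17.2 TPM in WT in the same libraries.

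Of 17 tested genes for YAP1 retention and turnover or TEAD cofactors, 11 were lower and 6 higher in S127A, beside 49.8% lower and 40.2% higher of all tested genes, so that 17 of 17 calls stand beside 90.0% called over the table. The median log2 difference was −0.47. The call of BTRC, a ubiquitin ligase subunit for YAP1 named after its values were seen, held in 7 of 17 alternatives (log2 difference −0.15, adjusted p = 0.0386, with 0.00826 to 0.446 over the alternatives). VGLL3, a TEAD cofactor of the same Vestigial-like family as VGLL4, was at 0.12, 0.10 and 0.14 TPM in S127A, against 126, 116 and 117 TPM in WT. The S127A libraries were thus close to 0, and VGLL3 fell by 6.75 in log2 (SE 0.0582, adjusted p = 1.2e-14). Of all tested genes 99.5% had a smaller absolute difference. WBP2, which binds the WW domains of YAP1 and WWTR1, fell to 66.6 ± 1.83 TPM in S127A, against 228 ± 7.52 TPM in WT. The 14-3-3 genes did not move together. YWHAG rose to 644 ± 4.46 TPM in S127A, against 248 ± 2.33 TPM in WT, and YWHAQ fell to 269 ± 6.8 TPM, against 543 ± 19.8 TPM (SD, n = 3 each). YWHAQ has 3 annotated pseudogenes that bear its name, and reads that fit both leave its level uncertain. VGLL1 and TP73 were listed below the filter, and 2 of the 21 listed genes were not analysed here. The melanocyte factor SOX10 averaged 0.603 TPM in S127A and 341 TPM in WT in the same libraries.

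Target genes of YAP1 and TEAD were taken from a conserved signature known from human cancers, without LATS2 and AMOTL2. Of 14 tested targets 9 rose, 4 fell and 1 did not pass, beside 40.2% higher and 49.8% lower of all tested genes. The median log2 difference was 1.04, against −0.12 for all tested genes, and the median absolute difference was 1.82, against 0.69. ANKRD1, an ankyrin repeat protein, was at 157, 150 and 149 TPM in S127A, against 0.47, 0.13 and 0.21 TPM in WT, and it rose by 6.92 in log2 (SE 0.0883, adjusted p = 1.03e-13). AXL, a receptor tyrosine kinase known as a mark of dedifferentiated melanoma cells, was at 870.5, 879 and 885 TPM in S127A, against 7.72, 6.85 and 7.35 TPM in WT. It rose by 6.73 (SE 0.0411, adjusted p = 2.37e-15), and the WT libraries lay far below. MYOF, a membrane repair protein, rose to 405 ± 4.9 TPM in S127A, against 60.1 ± 1.24 TPM in WT, and GADD45A, a stress response gene, rose to 293 ± 7.51 TPM, against 54.3 ± 2.87 TPM (SD, n = 3 each).

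**Figure D4:**
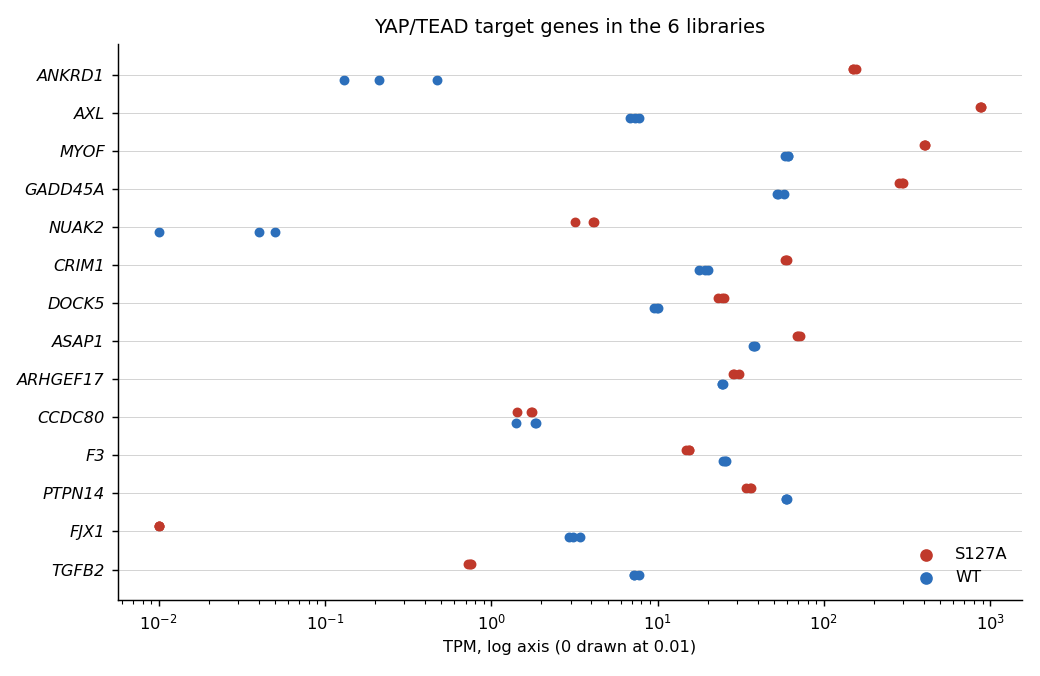
TPM on a log axis of 14 tested target genes in the 3 S127A (red) and 3 WT (blue) libraries, with 0 drawn at 0.01, ordered by the log2 difference. ANKRD1 and AXL lie at the top with rises of 6.92 and 6.73, and TGFB2 lies at the bottom at −2.27.

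The remaining targets are named after their values were seen. CRIM1, DOCK5, ASAP1, ARHGEF17 and NUAK2 rose, by 1.59, 1.21, 0.87, 0.25 and 2.21 on the log2 scale. NUAK2, a kinase related to AMPK, was at 4.08, 4.14 and 3.17 TPM in S127A, against 0.05, 0.00 and 0.04 TPM in WT. TGFB2, a ligand of the TGF-beta family, fell to 0.74 ± 0.02 TPM in S127A, against 7.38 ± 0.302 TPM in WT. FJX1 was listed at 0 in the 3 S127A libraries and stood at 2.93, 3.10 and 3.42 TPM in WT. F3, the tissue factor that starts coagulation, fell by 0.70, and PTPN14, a phosphatase that also restrains YAP1 and is counted in both lists, fell by 0.72. CCDC80 stood at 1.64 ± 0.191 TPM in S127A and 1.70 ± 0.255 TPM in WT (adjusted p = 0.751). Of the 20 listed targets 4 lay below the filter, and CCN1 and CCN2, which are among the best known targets, were not analysed here, so the counts are without them. A window with the motif was present for 4 of the 12 targets for which one was found. Fibroblast and melanocyte markers differed between the same libraries as given above, and their part in the levels of these targets was not tested.

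**Figure D5:**
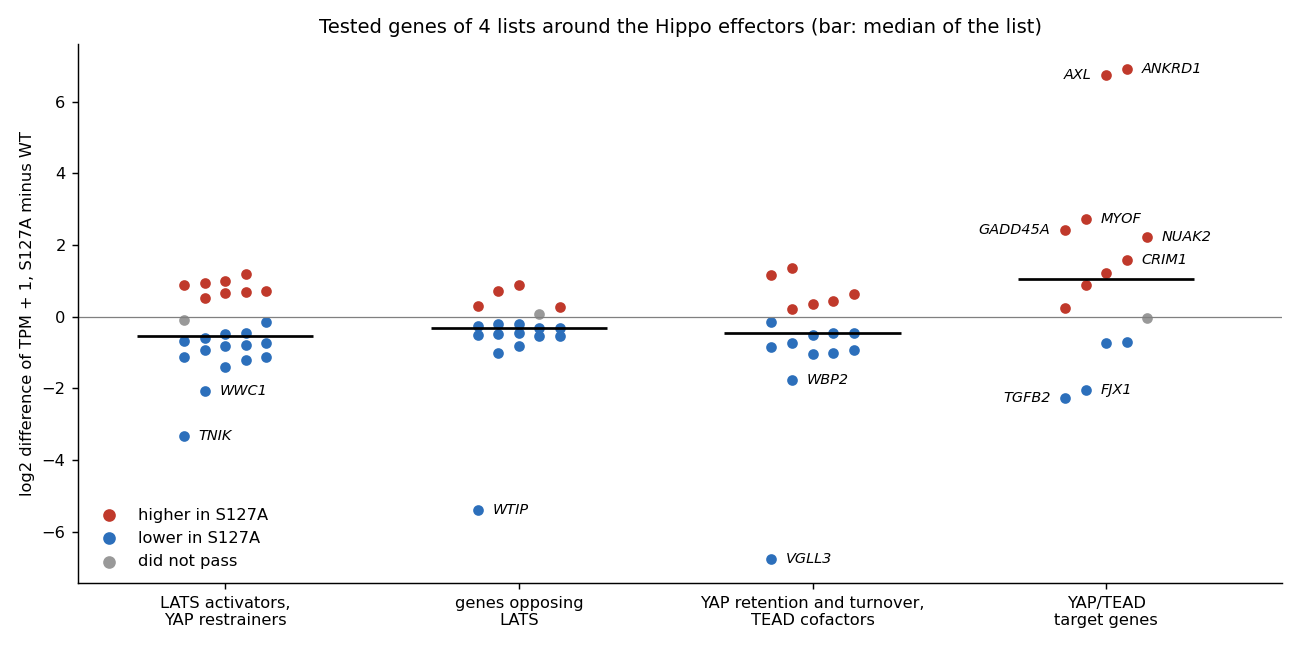
Log2 difference of TPM + 1 (S127A minus WT) of each tested gene in 4 lists, coloured by the limma call at an adjusted p of 0.05, with the list's median as a bar and gene names where the absolute difference is over 1.5. The medians are −0.54, −0.33, −0.47 and 1.04 from left to right.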

How the data were processed

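Total RNA of 6 libraries was extracted with TRIzol, primed with random hexamers and sequenced by BGI, per the labels' protocols. The authors deposited TPM per gene, per the file headers, on mm10, per the submitters' processing notes. Neither the quantifier nor the strand setting is given in the sources used here. TPM keeps no depth, so depth is unknown and the spread between replicates is the only error. Columns summed to between 830745 and 833332 TPM in S127A and between 862949 and 864529 TPM in WT. These are 83.1% to 83.3% of a full TPM total in S127A and 86.3% to 86.5% in WT. The deposited values were thus not on a common total. Groups and replicate numbers came from the titles.

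Genes with a mean of at least 1 TPM were compared by limma 3.58.1 (R 4.3.3) after adding a pseudocount of 1 and taking log2 (mean-variance trend, genotype only, two-sided, Benjamini-Hochberg over 10348 genes, threshold 0.05). The script was tested on simulated data in which few genes changed, unlike the 90.0% called here. That test therefore does not cover a table that differs this widely. Summaries were made with Python 3.11.15 and pandas 2.3.3, and promoter windows were taken from RefSeq tables matched by symbol. Positions of genes came from the GENCODE annotation of mm10, whose symbols in upper case matched 14017 of the 14915 symbols and all 10 genes. No per-sample column was left out.

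The 10 genes, the 4 lists and the rule for names were chosen with earlier results of these data known. The rule named the 10 genes, up to 4 genes of each list with the smallest adjusted p, the 3 genes most like YAP1 and like WWTR1, and ZBTB5, of which a gene opposing LATS is not reported here. Alternatives were 2 pseudocounts, 2 filters, 3 scalings, 2 forms of the variance model, the replicate number as a term, each library left out and identical symbols counted once.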

Additional observations from a re-analysis of the deposited data

How the results depend on the processing

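The 10 genes kept direction and call in 170 of 170 results over the 17 alternatives run, with 6 higher and 4 lower in each. With each library left out in turn, 9123 to 9211 genes changed over the whole table, against 9315 with all libraries. Counting identical symbols once was chosen after seeing the data. TEAD2 had the smallest difference, between −0.29 and −0.17, and TEAD3 varied most, between 0.99 and 1.42. The median of all tested genes was −0.12, against −0.06 with a common total, −0.02 with trimmed mean scaling and −0.01 with quantile normalization. Requiring a mean of at least 5 TPM left 2 target genes called lower, against 4, because fewer genes were tested. The 11 retention and cofactor genes called lower became 10 with a pseudocount of 0.1, no filter, a mean of at least 5 TPM, each of the 3 scalings and 5 of 6 fits with a library left out.

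Under the scalings some small differences changed sign, and the cause was not tested. The summed YAP1 and WWTR1 difference was 3.20 TPM with a common total, 7.70 TPM with trimmed mean scaling and 8.17 TPM with quantile normalization, against −2.76 TPM as deposited. The summed TEAD difference was 32.8, 36.6 and 35.0 TPM in the same order, against 27.8 TPM. TAOK3 was at 0.0013 with trimmed mean scaling and 0.016 with quantile normalization. CCDC80 was at 0.027 with trimmed mean scaling, 0.30 (adjusted p = 0.0128 by limma) with quantile normalization and 0.0018 after rescaling to a common total. With each library left out it ran from −0.11 to 0.029, and its sign turned in 3 of 6 such fits, with adjusted p from 0.0128 to 0.986 over its alternatives. MARK2 passed with trimmed mean scaling (0.16, adjusted p = 0.011), quantile normalization (0.13, adjusted p = 0.0253) and a common total (0.12, adjusted p = 0.0378), and its adjusted p ran up to 0.509 in the others.

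Same-numbered libraries deviated together with correlations across genes of 0.117, 0.0174 and 0.0279. For libraries with different numbers the correlations ran from −0.0757 to 0.0544, and not every library correlated best with its own number. With 3 libraries per group, correlations this weak cannot settle whether the numbers pair the samples. With the replicate block 9339 genes changed, and 6 of the 10 genes were higher and 4 lower. Reads of near-identical genes and of overlapping strands limit the levels, and without depth no counting error could be set beside values near 0.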
